A study of Homo sapiens with 11 samples.

Results

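The 2732 regions described here are H3K4me3 peaks of SK-N-MC cells that lay away from the outer ends of protein-coding genes, out of 16089 H3K4me3 peaks in the deposited list (17%, 95% Wilson interval 16.4 to 17.6). A peak was taken when it was narrower than 3000 bp, lay more than 5 kb from either annotated end of any protein-coding gene of GRCh38, and shared no base with an H3K27me3 peak. Of the 16073 peaks on chromosomes with coding genes, 2865 were far enough from gene ends, 87 of these were too wide and 46 carried H3K27me3. The widest peak taken was 2990 bp (in NAV1) and the narrowest left out for width 3003 bp (in LIMA1). The nearest peak taken lay 5005 bp from an end of FLYWCH2, and the farthest left out lay 4992 bp from an end of GRAMD1A. The peaks were thus chosen by their H3K4me3 call, width, distance and H3K27me3 overlap, so their H3K4me3 height and width are given as description. The peaks are called distal H3K4me3 peaks below, which refers to the outer ends of genes only: 1493 of them (54.6%) lay between the 2 ends of a coding gene, beside 81.3% of the whole H3K4me3 list, whose gene-end peaks also count.

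SK-N-MC is an established human line from an Ewing sarcoma, with the EWSR1::FLI1 fusion, and every sample was labelled wildtype, with no treatment given. Chromatin was precipitated with antibodies to 9 targets, 1 peak list each: the histone marks H3K4me3, H3K27ac, H3K4me1 and H3K27me3, the factor FLI1, and the subunits HDAC2, RBBP4, MTA2 and CHD4, the last through a Flag tag. There were also 2 input libraries. No target had a replicate list and the read depth is unknown, so no value has a replicate error and no test between targets could be made. Intervals in brackets are 95% Wilson intervals over peaks and cover counting error only. How the Flag tag reached CHD4 was not given in the sources used here.

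Trimethylation of histone H3 at lysine 4 is laid down around active transcription start sites, most often on the first nucleosomes downstream of the start, and on CpG-rich DNA it can be found at starts of low output. A gene can have several starts, so a start that lies deep inside a gene carries the mark far from the annotated outer end. Transcripts of RNA polymerase II without a protein product carry it as well, and so do many active transfer RNA genes, which RNA polymerase III transcribes. Enhancers usually carry H3K4me1 instead, with H3K27ac when active. The NuRD complex joins nucleosome remodelling by CHD4 to deacetylation by HDAC2, with MTA2 as scaffold and RBBP4 as a histone-binding subunit that also belongs to other complexes.

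The following start sequences show the 2 settings that hold most of the annotated distal peaks. They are the 150 bases before annotated starts, 5′ to 3′ on the transcribed strand, from RefSeq (GRCh38.p14), with each CpG dinucleotide in capitals. The first 6 are pairs: the outer start of a coding gene, which had no H3K4me3 peak, and the inner start of the same gene at a distal H3K4me3 peak. They come from the 3 genes of highest −log10 p at the inner peak for which the table held both starts. SLC1A3 encodes a glutamate transporter, NDUFA5 a subunit of mitochondrial complex I and GNB5 a G protein beta subunit. The outer and inner windows are chr5:36596438-36596587 and chr5:36606456-36606605 (plus strand) for SLC1A3, chr7:123601652-123601801 and chr7:123557819-123557968 (minus strand) for NDUFA5, and chr15:52191393-52191542 and chr15:52179926-52180075 (minus strand) for GNB5.
SLC1A3 outer start: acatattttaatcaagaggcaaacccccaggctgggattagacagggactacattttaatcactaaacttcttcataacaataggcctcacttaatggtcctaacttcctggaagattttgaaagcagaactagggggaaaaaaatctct
SLC1A3 inner start: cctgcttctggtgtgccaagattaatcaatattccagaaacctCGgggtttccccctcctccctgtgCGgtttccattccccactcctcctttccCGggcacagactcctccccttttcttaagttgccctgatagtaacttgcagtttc
NDUFA5 outer start: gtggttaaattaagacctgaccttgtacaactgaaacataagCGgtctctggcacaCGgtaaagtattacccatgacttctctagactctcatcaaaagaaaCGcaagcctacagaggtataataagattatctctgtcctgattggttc
NDUFA5 inner start: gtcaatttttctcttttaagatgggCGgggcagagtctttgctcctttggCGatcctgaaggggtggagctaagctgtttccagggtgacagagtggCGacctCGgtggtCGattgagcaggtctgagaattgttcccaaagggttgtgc
GNB5 outer start: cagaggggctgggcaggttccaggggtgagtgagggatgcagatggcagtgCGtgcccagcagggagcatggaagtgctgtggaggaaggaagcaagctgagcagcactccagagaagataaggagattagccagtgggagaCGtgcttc
GNB5 inner start: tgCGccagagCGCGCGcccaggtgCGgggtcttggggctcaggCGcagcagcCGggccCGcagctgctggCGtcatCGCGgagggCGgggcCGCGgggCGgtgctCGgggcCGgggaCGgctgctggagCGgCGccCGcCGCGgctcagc
The windows held 0 and 3 CpG dinucleotides (outer and inner) for SLC1A3, 3 and 5 for NDUFA5 and 2 and 23 for GNB5, so the inner start was the richer in each pair, by little in 2 of them. The inner windows of NDUFA5 and GNB5 hold the letters of a GC box, GGGCGG on either strand, with 1 and 2 matches.

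The other 3 sequences lie before the starts of long noncoding RNA genes that had a distal H3K4me3 peak over the start. EWSAT1 is a long noncoding RNA known in Ewing sarcoma, NORAD one that binds PUMILIO proteins, and DLEU2 hosts microRNAs of the miR-15/16 family. The windows are chr15:69080700-69080849 (plus strand), chr20:36050961-36051110 (minus strand) and chr13:50125542-50125691 (minus strand).
EWSAT1 start: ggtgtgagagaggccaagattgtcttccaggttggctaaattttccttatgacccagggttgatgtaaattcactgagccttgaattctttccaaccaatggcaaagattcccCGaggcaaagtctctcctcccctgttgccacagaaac
NORAD start: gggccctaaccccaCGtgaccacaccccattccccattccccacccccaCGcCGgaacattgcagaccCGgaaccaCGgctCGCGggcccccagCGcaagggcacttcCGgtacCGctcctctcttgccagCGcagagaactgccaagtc
DLEU2 start: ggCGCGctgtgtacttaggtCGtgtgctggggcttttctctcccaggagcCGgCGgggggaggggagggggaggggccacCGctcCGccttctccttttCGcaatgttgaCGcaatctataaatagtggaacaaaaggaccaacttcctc
EWSAT1 had 1 CpG in these bases, NORAD 11 and DLEU2 9. The NORAD window holds the ETS letters CCGGAAGT on the reverse strand, 47 bases before the start, and the DLEU2 window holds TATAAA 33 bases before it. These matches describe letters and not binding.

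The distal peaks fell into 4 classes by the annotation at the peak, a split added after the start table had been seen. Starts on chromosome 8 were not used here, so its 122 distal peaks were left out of the classes and 2610 remained. An annotated start of a coding gene lay within 1 kb of 794 (30.4%, 28.7 to 32.2), and each of these 794 lay in the gene that the start belongs to. A further 745 (28.5%, 26.8 to 30.3) had no such start but an end or start of a noncoding gene within 1 kb. The start table covered 15842 of 20037 coding genes and 11461 of 18303 long noncoding RNA genes. A peak called unannotated below can therefore lie at a start that the table lacks. The remaining 1071 had neither, 491 (18.8%, 17.4 to 20.4) inside a coding gene and 580 (22.2%, 20.7 to 23.9) between coding genes. Of those 580, 138 (23.8%) overlapped the body of a long noncoding RNA gene. The label of peaks far from coding genes therefore went against the annotation for these 794 peaks, which lay at annotated coding starts inside genes.

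The H3K4me3 height of the distal peaks, as the fold enrichment at the summit given by the authors' peak caller, followed these classes. The median fold was 15.7 (quartiles 11.3 and 20.1) at inner coding starts and 12.9 (9.25 and 18.3) at noncoding genes. It was 8.89 (6.88 and 13.3) at unannotated peaks in genes and 9.11 (7.25 and 12.4) at those between genes. H3K4me3 peaks within 1 kb of a coding gene end, 11021 peaks under the same width limit and without H3K27me3, had a median of 17.3 (12.7 and 21.7). Inner starts thus came near the height of outer gene ends and the unannotated peaks were the lowest and narrowest. Median widths were 1209 bp, 885 bp, 581 bp and 552 bp in the 4 classes and 1276 bp at gene ends.

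**Figure D1:**
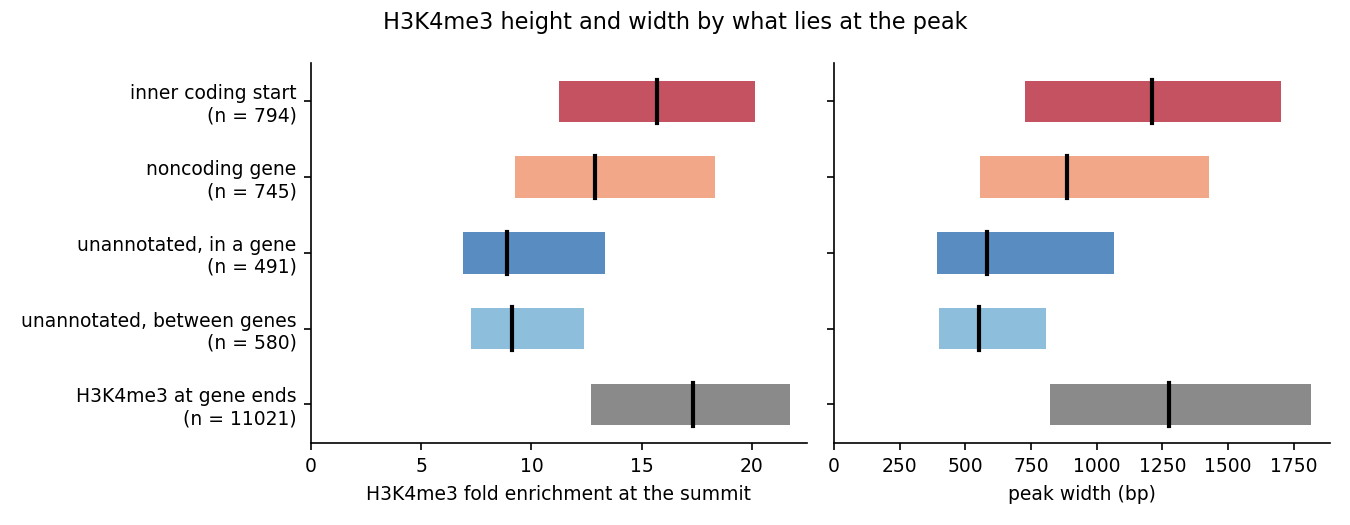
H3K4me3 fold enrichment at the summit (left) and peak width in bp (right) for the 4 classes of distal peak outside chromosome 8 and for H3K4me3 peaks within 1 kb of a coding gene end. Bars run from the lower to the upper quartile over peaks and black lines are medians. The median fold runs from 15.7 at inner coding starts to 8.89 at unannotated peaks in genes, and is 17.3 at gene ends.

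Split into 3 equal groups by height, the distal peaks changed in make-up. Of the 870 lowest peaks 555 had no annotated start or noncoding gene, against 175 of the 870 highest, of which 413 were inner coding starts. H3K27ac overlapped 41.3% (38.0 to 44.6) of the lowest, 40.6% of the middle and 64.1% of the highest group, and HDAC2 46.9%, 48.2% and 65.2%. H3K4me1 went the other way, from 14.7% through 6.90% to 3.33%, as did CHD4, from 29.8% through 25.3% to 20.2%. Within the unannotated peaks CHD4 was at 32.8% of the lowest, 25.2% of the middle and 21.7% of the highest. At inner coding starts it was at 18.3%, 21.6% and 15.3%, and at noncoding genes at 28.8%, 28.7% and 26.6%, a small fall. Between the lowest and highest group only the unannotated class had separate CHD4 intervals (29.0 to 36.8 and 16.2 to 28.4). H3K4me1 was lower in the highest than in the lowest group of each class, with 16.2% and 2.86% at unannotated peaks, 9.16% and 3.39% at inner starts and 14.1% and 3.55% at noncoding genes. Height was used by the peak call, and higher peaks were also wider, whose part in these shares was not tested.

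Inner starts of coding genes made up the highest class. The start table held 3335 coding starts more than 5 kb from any outer gene end, in 2094 genes, and 30.1% of them had an H3K4me3 peak within 1 kb, against 62.2% of the 18840 starts near outer ends. The 794 distal peaks at such starts belonged to 644 genes. Among all 20037 coding genes 5.67% held a distal peak anywhere between their ends (1136 genes), and the share was 7.92% of the genes longer than 10 kb and 17.1% of the 3356 genes longer than 100 kb. Of the 1136 genes 529 (46.6%, 43.7 to 49.5) had no H3K4me3 peak within 1 kb of either end. The same share was not counted over all coding genes, so this one is a description and not a trait of these genes.

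At the 644 genes with a marked inner start, the annotated outer 5′ end had an H3K4me3 peak in 327 (50.8%, 46.9 to 54.6) and none in 317 (49.2%, 45.4 to 53.1). Of the 18840 starts of the start table within 5 kb of either end of any coding gene, 62.2% had one. This was counted per start and not per gene, without chromosome 8, and is not limited to outer 5′ ends. The inner peak had a median fold of 16.9 where the outer end was marked and 17.1 where it was not, so its height did not differ with the state of the outer end by more than the quartiles (12.6 to 21.1 and 12.8 to 20.9). H3K27ac overlapped 61.8% of the former and 49.2% of the latter. Where both starts were marked, the outer peak had a median fold of 17.7, and the inner peak was the higher in 156 of 327 genes (47.7%, 42.4 to 53.1).

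**Figure D2:**
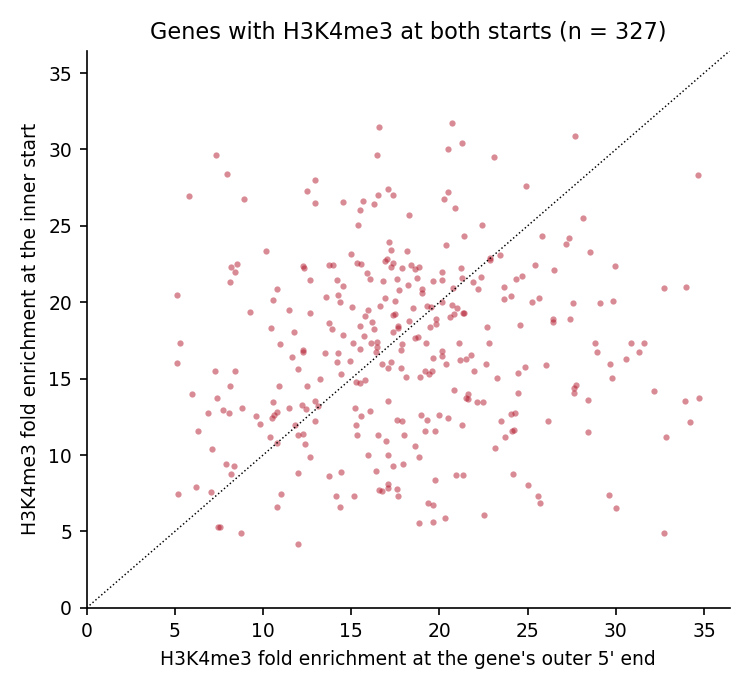
H3K4me3 fold enrichment at the inner start (vertical axis) against that at the annotated outer 5′ end (horizontal axis) for the 327 genes with a peak at both. Each point is a gene and the dotted line marks equal height. Points fall on both sides of the line, with the inner peak higher in 156 genes.

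The inner starts without H3K4me3 at either outer end that ranked highest by −log10 p were at MRPL44, a mitochondrial ribosomal protein (chr2:223957371-223959637, fold 20.004), AEN, an exonuclease of the p53 response (chr15:88621220-88622740, fold 25.8), and SLC1A3 (chr5:36605882-36608663, fold 29.1). NDUFA5 (chr7:123556647-123558386, fold 23.7), PM20D2 (chr6:89145245-89147789, fold 31.2) and KLF7, a zinc finger transcription factor (chr2:207166237-207167452, fold 25.05), followed. All 6 peaks overlapped H3K27ac. The peaks in SLC1A3 and PM20D2 overlapped all 4 NuRD subunits, those in AEN, NDUFA5 and KLF7 only HDAC2, and that in MRPL44 none. On chromosome 8, which the start table does not cover, AGO2, the Argonaute that cuts target RNA, and DNAAF11, a dynein assembly factor, held a distal peak each (fold 20.8 and 15.9) and also lacked H3K4me3 at both ends.

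Among genes with both starts marked, RUVBL1, an ATPase of several chromatin complexes, had a fold of 30.4 at the inner start, 30102 bp from the outer start with 21.3. MATCAP2 showed the opposite order, with 28.3 inside and 34.7 outside. The genes FKBP5, CMTR1 and WDR4 were picked after their values were seen, as examples of a high inner start. FKBP5, a glucocorticoid-induced chaperone, had 21.5 inside and 12.7 outside. CMTR1, a cap methyltransferase, had 26.9 and 5.78, and WDR4, a subunit of a transfer RNA methyltransferase, 28 and 12.9.

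A list of 50 genes known for internal alternative promoters was checked, written from general knowledge with earlier results of these data known. Of these, 29 (58%) held a distal peak, beside 5.67% of all coding genes. The list is made of long genes, with a median of 466 kb, and 44 of its members exceed 100 kb, a length at which 17.1% of coding genes held a distal peak and 26 of the 44 did. The strongest by −log10 p were DST and SYNE1, both cytoskeletal linkers (fold 21.2 and 25.9), with antisense genes at the peak, and the inner starts of NAV1, RUNX3, KLF12, MACF1, DLG2 and PDE4B (fold 14.7, 19.1, 19.7, 16.1, 20.3 and 13.7). TCF4, a neural and mesenchymal helix-loop-helix factor of many alternative starts, held 8 distal peaks, the most of any gene, each within 1 kb of an annotated start. Their fold ran from 5.98 to 13.5, 4 of them overlapped H3K27ac and none all 4 subunits. PDE4D, STARD13 and LOC124905135 followed with 6 each, the last 2 outside the list. In STARD13 3 of the 6 overlapped all 4 subunits, and in PDE4D and LOC124905135 1 each. Most genes were unlike these, with 847 of 1136 holding 1 distal peak.

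Of 30 genes known to be activated by the fusion 3 held a distal peak (10%), near the 7.92% of coding genes longer than 10 kb, and 23 of the 30 exceed that length. SOX6, a transcription factor, held 4, of which the highest (chr11:16606285-16608484, fold 25.8) overlapped H3K27ac, CHD4, HDAC2 and RBBP4. NPY1R, a neuropeptide Y receptor, had a marked inner start (chr4:163330464-163333275, fold 23.2) with H3K27ac, HDAC2 and RBBP4. LIPI, a lipase, had a low peak (fold 7.25) with H3K27ac and no subunit. None of these named peaks overlapped FLI1.

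Base composition at the starts was compared, since the rule did not use it. Windows of 300 bases, from 250 before to 50 after a start, were counted once for starts of a gene within 1 kb of each other. Inner coding starts at a distal peak held a median of 25 CpG dinucleotides (quartiles 13 and 35, n = 696) and inner starts without H3K4me3 held 5 (2 and 10, n = 2083). Outer starts held 27 with the mark (n = 9713) and 7 without (n = 6495). The medians of marked inner and marked outer starts lay close together, but their lower quartiles were 13 and 20. At least 15 CpG were in 71.8% (68.4 to 75.1) of marked inner starts and 87.5% (86.8 to 88.2) of marked outer starts. Starts of long noncoding RNAs held 22 at a distal peak (n = 458) and 3 without H3K4me3 (n = 9674). The share of inner starts with an H3K4me3 peak was 6.04% (4.77 to 7.61) with up to 4 CpG, 25.2% with 10 to 14 and 73.3% (68.8 to 77.3) with 30 or more. Sequencing yield can depend on GC content, and its part in these shares was not tested.

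**Figure D3:**
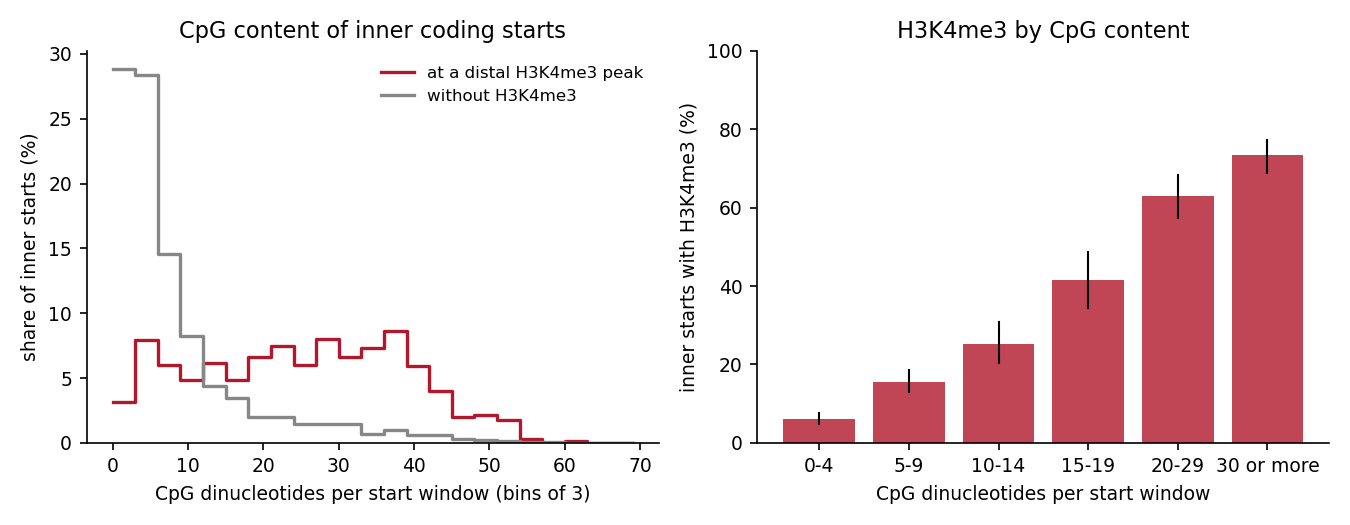
CpG dinucleotides in the 300-base windows of inner coding starts. The left panel gives the share of starts per bin for the 696 starts at a distal H3K4me3 peak and the 2083 without H3K4me3, and the right panel the share of inner starts with an H3K4me3 peak in 6 bins of CpG number with 95% Wilson intervals, rising from 6.04% to 73.3%.

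Short motifs were then searched on both strands of the same windows. The GC box GGGCGG, which Sp1 and related factors can bind and which itself contains a CpG, was in 64.8% (61.2 to 68.3) of marked inner starts, 21.8% of unmarked ones and 43.1% of all windows of coding and long noncoding genes. TATAAA was in 6.61% (4.99 to 8.70) of the marked and 16.2% of the unmarked inner starts, beside 12.2% of all windows. The ETS letters CCGGAAGT were in 4.17% (2.92 to 5.92) of marked inner starts, 0.720% of unmarked ones and 4.04% of all windows, and in 9.38% (8.82 to 9.98) of marked outer starts. A pair of GGAA units, GGAAGGAA, which can also be part of the longer repeats that EWSR1::FLI1 is known to bind, was in 3.45% (2.33 to 5.08) of marked and 4.46% (3.66 to 5.44) of unmarked inner starts and 3.69% of all windows. CpG number differs between these sets, and the motifs were not compared at equal CpG number.

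The summits around inner starts were placed relative to the start for the 614 distal peaks with exactly 1 coding start within 1 kb. The H3K4me3 summit lay a median of 255.5 bp downstream of the start, and 78.7% (75.3 to 81.7) were downstream. H3K27ac summits had a median of 196.5 bp downstream (n = 320). The HDAC2 summit was at 41 bp (n = 369), whereas RBBP4 lay at -50 bp (n = 199), CHD4 at -62 bp (n = 109) and MTA2 at -87 bp (n = 178), upstream of the start. MTA2 was downstream in 22.5% (17 to 29.1). The order was the same at 6267 gene-end peaks with 1 start, except that CHD4 lay farther upstream than MTA2. The medians there were 242 bp for H3K4me3, 180 bp for H3K27ac, 36 bp for HDAC2, -54 bp for RBBP4, -97 bp for MTA2 and -131 bp for CHD4. Distal peaks at 1 start of a long noncoding RNA had the H3K4me3 summit 193 bp downstream (n = 295), with 64.7% (59.1 to 70.0) of summits downstream. There MTA2 and RBBP4 also lay upstream (-47.5 bp, n = 94, and -49 bp, n = 115), but the median CHD4 summit lay 58.5 bp downstream (n = 84), with 52.4% (41.8 to 62.7) downstream. The window of 1 kb and the need for an overlap limit how far these summits can lie.

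**Figure D4:**
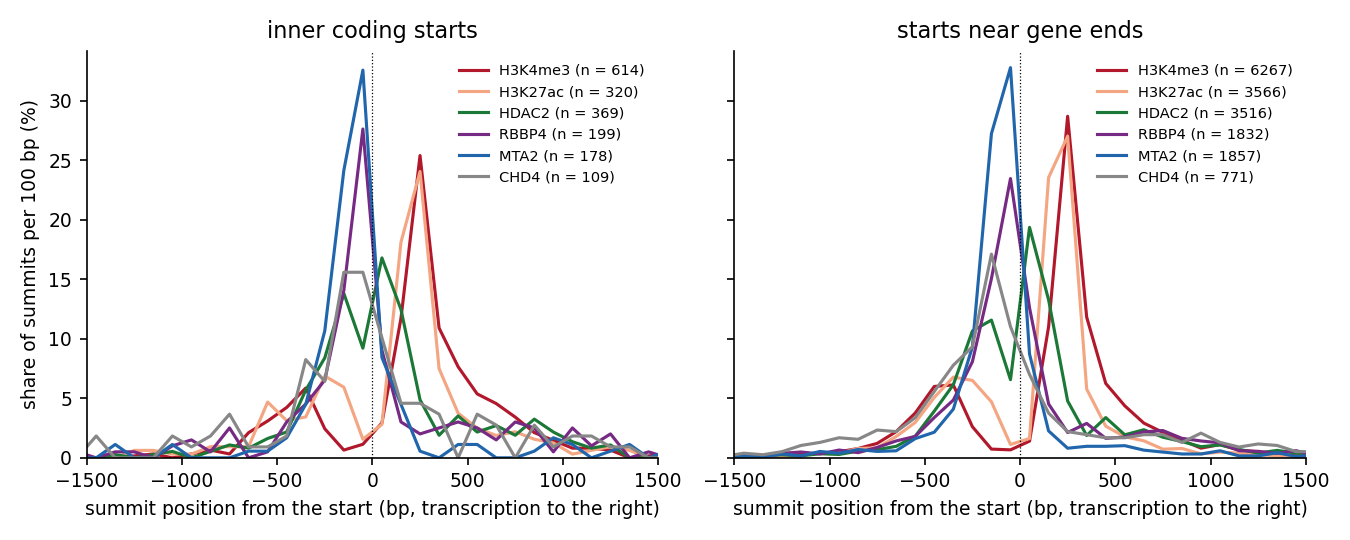
Position of peak summits relative to coding starts, per 100 bp, for distal H3K4me3 peaks with 1 inner start within 1 kb (left) and H3K4me3 peaks at gene ends with 1 start (right). Positive positions lie in the direction of transcription. H3K4me3 and H3K27ac summits peak downstream of the start (medians 255.5 and 196.5 bp on the left) and MTA2, RBBP4 and CHD4 summits upstream (medians -87, -50 and -62 bp).

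Noncoding genes were the second setting. Counting all chromosomes, 941 distal peaks (34.4%, 32.7 to 36.2) had an end of a noncoding gene within 1 kb, beside 27.8% of the whole H3K4me3 list. The share was 50.8% (48.1 to 53.6) between coding genes and 20.8% (18.8 to 23) inside them. Long noncoding RNA genes were at 660 of the peaks, transcribed pseudogenes at 139, tRNA genes at 127, other pseudogenes at 64, microRNA genes at 34, small nuclear RNA genes at 15 and small nucleolar RNA genes at 8, and a peak can have several. Of 39642 noncoding genes 1023 (2.58%) had a distal peak at an end. By type this was 3.41% of 18303 long noncoding RNA genes, 10.8% of transcribed pseudogenes, 0.385% of other pseudogenes and 30.7% of 443 tRNA genes. Reads from near-identical copies (tRNA, small nuclear RNA, 7SL and pseudogene families) may have been assigned to the wrong copy, and how such reads were treated was not given in the sources used here.

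Among the tRNA genes, which carry amino acids to the ribosome, 333 lay more than 5 kb from coding gene ends, and 136 of these (40.8%) had a distal H3K4me3 peak. Of the 127 peaks 73 lay on chromosome 6, 70 of them between 25 and 30 Mb, the region of the largest human tRNA gene cluster, and 15 on chromosome 1. The peak with the most tRNA genes held TRQ-TTG3-1, TRQ-TTG3-2, TRS-TGA3-1 and TRX-CAT1-3 (chr6:26311285-26314096, fold 25.1) and overlapped H3K27ac and all 4 subunits. No tRNA peak overlapped H3K4me1 (0 of 127, upper bound of the Wilson interval 2.94%), against 8.83% (7.80 to 9.98) of all other distal peaks. CHD4 overlapped 56.7% (48.0 to 65.0) of the tRNA peaks and 24.0% (22.4 to 25.7) of all others, and RBBP4 61.4% (52.7 to 69.4) and 30.9% (29.2 to 32.7). HDAC2 (52.8% and 53.8%) and MTA2 (29.1% and 30.1%) differed by less than the width of their intervals. H3K27ac was at 26.0% (19.1 to 34.2) of tRNA peaks and 49.8% of all others. The CHD4 share was 57.5% on chromosome 6 and 55.6% on other chromosomes, so it was as high outside the cluster. The tRNA peaks were wider than the others, with a median of 1047 bp against 791 bp.

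A different comparison was made per gene, between far tRNA genes with and without a distal H3K4me3 peak. Within 1 kb of a far tRNA gene CHD4 was called at 73.5% (65.5 to 80.2) of the 136 genes with a distal H3K4me3 peak and at 18.8% (13.9 to 24.8) of the 197 without. For RBBP4 the shares were 80.9% (73.5 to 86.6) and 18.8%, for HDAC2 65.4% and 11.2%, for MTA2 41.2% and 5.58% and for H3K27ac 30.1% and 1.02%. All 5 were thus higher at the marked tRNA genes, also HDAC2, MTA2 and H3K27ac, which were not higher at tRNA peaks than at the other distal peaks. Neighbouring tRNA genes share peaks, so the genes are not independent. Without the tRNA peaks, the noncoding class had CHD4 at 22% (18.9 to 25.4) of 622 peaks instead of 27.9% of 745, and RBBP4 at 32.8% instead of 37.6%.

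A list of 32 small RNA genes of splicing, RNA processing and transport had 12 with a distal peak (37.5%, beside 2.58% of noncoding genes). By type the share was 8.44% of small nuclear RNA genes, and all 4 annotated Y RNA genes had a distal peak. The 3 Y RNA genes of the list, whose RNAs bind the Ro60 protein, were marked, RNY3 with a fold of 15.6, RNY1 with 13.2 and RNY4 with 7.57. RNY3 overlapped CHD4, HDAC2 and RBBP4, and RNY1 and RNY4 no subunit. RNY5, outside the list and named after its values were seen (nearest coding gene EZH2), had a fold of 19.9 and overlapped all 4 subunits. The splicing RNA gene RNU6-1 shared its peak (chr15:67839623-67840977, fold 21.7) with SKOR1-AS1, and RNU6-7 and RNU6-8 shared another (fold 16.5). RN7SL2 and RN7SL1, the RNA of the signal recognition particle, had folds of 26.6 and 15.0, and RNU4ATAC of the minor spliceosome 16.2. H3K27ac overlapped 13 of the 15 peaks at small nuclear RNA genes (86.7%, 62.1 to 96.3), beside 48.6% of all distal peaks and 46.3% of the noncoding class.

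Of the 32 long noncoding RNAs of a list of genes studied in cancer or development 7 had a distal peak (21.9%), beside 3.41% of all long noncoding RNA genes. NORAD had the strongest (chr20:36049117-36051014, fold 32.8), with HDAC2 as its only subunit. DLEU2 (chr13:50123406-50125586, fold 27) overlapped HDAC2, MTA2 and RBBP4. JPX and FTX, genes of the X inactivation centre, had folds of 29.1 and 15.1, MALAT1 9.03 and KCNQ1OT1 8.68. EWSAT1 (chr15:69080793-69083255) had a fold of 9.36 over 2463 bp and overlapped all 4 subunits and H3K27ac but not FLI1. Its height was thus below the median of the noncoding class while its subunit calls were complete.

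Among 25 hosts of small nucleolar RNAs, which are spliced transcripts of translation-linked genes, SNHG5 (fold 21.5), EPB41L4A-AS1 (25.3), SNHG30 (16.4) and DANCR (16.0) had a distal peak (16%). The share was 2.58% of all noncoding genes and 3.41% of long noncoding RNA genes. The peaks of SNHG5, EPB41L4A-AS1 and DANCR overlapped H3K27ac and no NuRD subunit. Of 24 microRNA host genes 6 (25%) had one, beside the same 2.58% and 3.41%. MIR9-3HG (fold 28) and MIR193BHG (27.7) were the highest, followed by MIR99AHG (19), MIR31HG (17.4), MIR17HG (9.59) and MIR23AHG (5.59). MIR17HG, the host of an oncogenic microRNA cluster, overlapped all 4 subunits.

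Distal peaks also lay over 18 of 1562 microRNA hairpins. Those of MIR199A2 (fold 23.7, all 4 subunits, in DNM3OS), MIR193B (27.7, HDAC2), MIR9-3 (16.1, HDAC2, MTA2 and RBBP4) and MIR132 (16.1, MTA2) hold well-studied microRNAs of mesenchymal and neural cells. The mature sequences of 3 of these from RefSeq are shown because the mark covered the hairpin itself, with the seed (bases 2 to 8) in capitals.
hsa-miR-9-5p: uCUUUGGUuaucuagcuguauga
hsa-miR-193b-3p: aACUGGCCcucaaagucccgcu
hsa-miR-132-3p: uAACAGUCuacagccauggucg
The 3 seeds differ from each other, so these hairpins do not form a seed family. The mark over a hairpin does not measure the mature microRNA.

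The strongest noncoding peaks by −log10 p were at PVT1 and MIR1204 (chr8:127794010-127796800, fold 18.9, all 4 subunits) and at the methionine tRNA gene TRM-CAT1-1 on chromosome 8 (fold 18.4, all 4 subunits). In falling order of −log10 p there followed the transcribed pseudogenes CROCCP2 and MST1P2 on chromosome 1 (fold 19.3), LOC124902026 in ASAP1 on chromosome 8 (20.2), the transcribed pseudogenes LOC100289561 on chromosome 7 (30.2) and GBA1LP on chromosome 1 (26.4), and ERICD in AGO2 on chromosome 8 (20.8). Of the 10 distal peaks of highest −log10 p, 6 lay on chromosome 8, led by a peak in ATAD2 (chr8:123394443-123396782, fold 27.4). Peaks in CYRIB (chr8:129937985-129940589, fold 16.9) and EIF3H (chr8:116754620-116756496, fold 26.6) were also among these 6. Peaks on distal 8q had a high −log10 p for their fold, with a median of 57.5 at a median fold of 9.72 (n = 27) against 40.0 at 11.8 in the others. No copy number was measured here, and its part in this ranking was not tested. Ranks by −log10 p across chromosomes should be read with these values.

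The other chromatin marks were compared between the distal peaks and the whole H3K4me3 list. H3K27ac overlapped 1329 distal peaks (48.6%, 46.8 to 50.5), beside 56.6% of all H3K4me3 peaks and 58.4% (57.5 to 59.4) of those at gene ends. The order reversed when the other peak had to cover at least 50% of the H3K4me3 peak, with 33.1% and 25%, a rule that wide peaks meet less easily. H3K4me1 overlapped 230 (8.42%, 7.44 to 9.52), beside 4.76% and 2.82% (2.53 to 3.15). Among the classes H3K4me1 was at 5.16% (3.83 to 6.93) of inner starts, 6.71% of noncoding genes, 13.4% (10.7 to 16.7) of unannotated peaks in genes and 10.3% (8.12 to 13.1) of those between genes. Counting H3K4me1 in the peak or up to 1 kb beside it, 23.8% (22.2 to 25.4) of distal peaks had it, against 9.37% (8.84 to 9.93) of gene-end peaks. That share was 37.1% for unannotated peaks in genes and 16.8% for inner starts.

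Distal H3K27ac peaks without H3K4me3, 9114 regions under the same distance rule and without H3K27me3, were the other kind of distal element. No width limit was set for these regions (widest 13591 bp). All of them were acetylated by definition, against 48.6% of the distal H3K4me3 peaks. H3K4me1 overlapped 67.3% (66.4 to 68.3) of the 9114 regions. The lowest H3K4me3 class, unannotated peaks in genes, stayed far below this at 13.4%. The median width was 596.5 bp there and 581 bp and 552 bp for the unannotated H3K4me3 peaks in and between genes, and the sets were not compared at equal width. By shared bases FLI1 overlapped 7.60% (7.08 to 8.17) of the acetylated regions and 0.329% (0.173 to 0.625) of distal H3K4me3 peaks. With the summit of the region or peak required inside a FLI1 peak the shares were 0.0439% and 0.0366%. With 50% coverage they were 0.0549% and 0%, so the large difference held for shared bases only.

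The NuRD subunits were compared in the same way, and the shares depended on the overlap rule. Between shared bases, summit and 50% coverage, the direction against gene-end peaks reversed for HDAC2 only. CHD4 overlapped 697 (25.5%, 23.9 to 27.2), beside 16.5% of the whole list and 12.6% (12 to 13.3) of gene-end peaks, although the distal peaks were narrower. With the H3K4me3 summit required inside the CHD4 peak the shares were 9.55% and 2.58%. HDAC2 overlapped 53.8% (51.9 to 55.6), beside 56.7% and 57.2%, and with coverage of at least 50% it was higher at distal than at gene-end peaks (22.5% and 16.6%). MTA2 (30.1%, beside 30.3%) and RBBP4 (32.4%, beside 31.3%) were near the share of the whole list. At gene-end peaks MTA2 was at 29.9% and RBBP4 at 29.8% (29.0 to 30.7), so RBBP4 was slightly higher at distal peaks (30.6 to 34.1). By summit both were higher at distal than at gene-end peaks, MTA2 with 6.55% and 3.67% and RBBP4 with 8.13% and 5.02%. With 50% coverage the shares were 4.28% and 1.03% for MTA2 and 3.88% and 0.835% for RBBP4, so under these rules they differed in the same direction as CHD4. Wide H3K4me3 peaks meet these rules less easily, since median widths were 335 bp for MTA2 and 274 bp for RBBP4 peaks. Distal H3K4me3 peaks had a median of 802 bp and gene-end peaks 1276 bp, and the part of width in these directions was not tested. All 4 subunits were at 347 distal peaks (12.7%, 11.5 to 14), beside 8.68% of all H3K4me3 peaks and 6.47% (6.03 to 6.94) at gene ends, and none at 986 (36.1%, 34.3 to 37.9), beside 33.5%. By class CHD4 was at 17.8% (15.3 to 20.6) of inner starts and 29.8% (26.2 to 33.7) of unannotated peaks between genes, while HDAC2 went from 59.1% (55.6 to 62.4) to 47.9% (43.9 to 52.0), an order that reversed for the unannotated peaks as a whole with 50% coverage (21.2% and 25.1%). At the distal acetylated regions CHD4 reached 37.3% and HDAC2 36.4%. By shared bases the distal H3K4me3 peaks lay between gene ends and acetylated regions for CHD4, HDAC2 and all 4 subunits together (17.6% at the acetylated regions). With 50% coverage this order ended for HDAC2, at 22.5% of distal peaks, 16.6% of gene ends and 7.74% of acetylated regions, and for all 4 subunits, at 1.17%, 0.0998% and 0.691%. By summit all 4 were at 2.09% of distal peaks and 2.08% of acetylated regions.

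**Figure D5:**
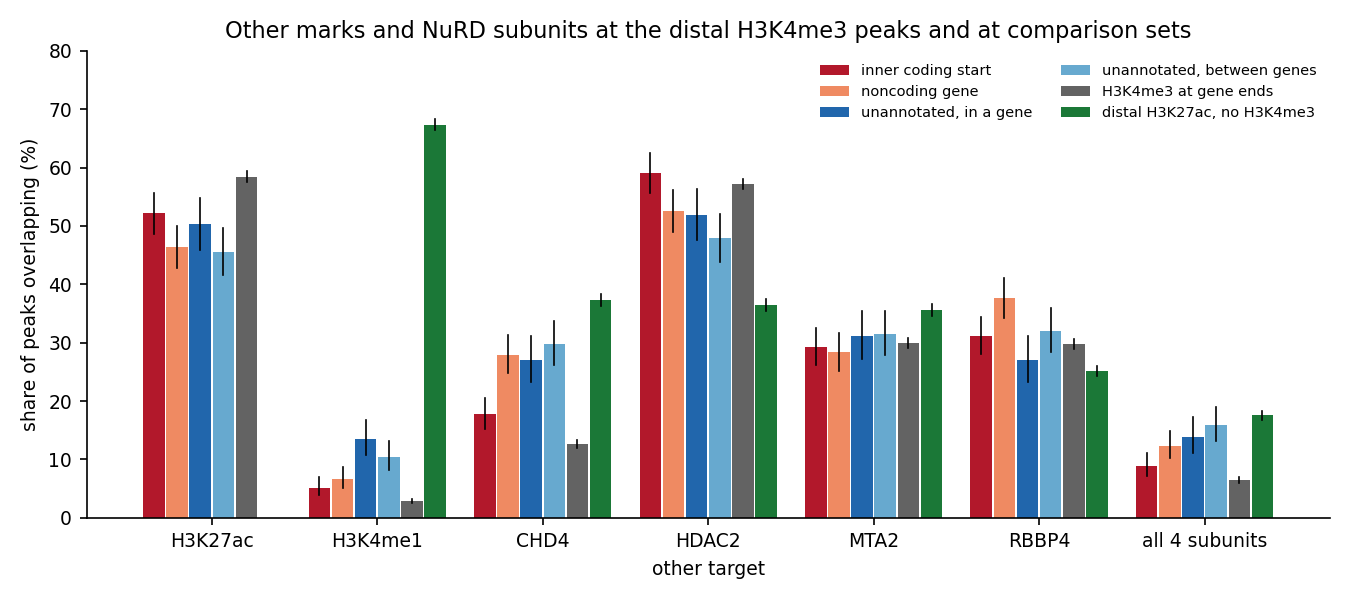
Share of peaks that overlapped each other target, in percent, for the 4 classes of distal H3K4me3 peak, H3K4me3 peaks at gene ends and distal H3K27ac peaks without H3K4me3 (no H3K27ac bar, since the mark defines them). Lines are 95% Wilson intervals. CHD4 runs from 12.6% at gene ends through 17.8% at inner coding starts to 37.3% at distal H3K27ac peaks, and H3K4me1 from 2.82% to 67.3%.

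HDAC2 without the other 3 was the most frequent combination after no subunit, at 428 distal peaks (15.7%), followed by all 4. By the number of subunits from 0 to 4, H3K27ac was at 27%, 43.5%, 61.9%, 70.6% and 82.1% of the peaks. H3K4me1 was at 4.26%, 6.08%, 11%, 9.03% and 20.5%. H3K4me3 height did not follow, with median folds of 10.4, 13.1, 13.6, 13.6 and 10.6, so peaks with all 4 subunits were acetylated most often and were no higher in H3K4me3 than peaks with none. Median widths were 572 bp with none and 956 bp with all 4, and the part of width was not tested. Where a CHD4 peak overlapped a distal peak its median fold was 4.27 (quartiles 3.63 and 4.98), against 3.91 (3.40 and 4.52) at gene ends and 4.65 in the whole CHD4 list.

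Split by the other 2 active marks, 1355 distal peaks (49.6%) had neither H3K27ac nor H3K4me1, 1147 (42.0%) H3K27ac without H3K4me1, 182 (6.66%) both and 48 (1.76%) H3K4me1 without H3K27ac. The 182 with both had all 4 subunits in 33.5% (27.1 to 40.7), against 19.5% (17.3 to 21.9) of the acetylated peaks without H3K4me1, although they were lower (median fold 8.49 and 14.8) and narrower (741.5 bp and 1198 bp). No peak of any other target was found at 705 distal peaks (25.8%, 24.2 to 27.5), against 18.9% (18.2 to 19.6) of gene-end peaks. This share varied from 22.8% (20.01 to 25.8) at inner starts to 29.1% (25.6 to 33.0) between genes, and the 705 had a median fold of 9.88 and a median width of 527 bp.

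Ranked by the mean rank of their 4 subunit folds, the leading distal peaks were mostly low in H3K4me3. The first lay in METTL24 (chr6:110296680-110297438), with an H3K4me3 fold of 6.87 and subunit folds of 10.8 (RBBP4), 10.1 (MTA2), 9.86 (HDAC2) and 10.4 (CHD4). The second was an exception in height, at LOC105376235 with TNC, the matrix protein tenascin C, as the nearest coding gene 478 kb away (chr9:115596517-115598694, fold 24.2, with 5.71 for RBBP4, 11.7 for MTA2, 8.93 for HDAC2 and 7.58 for CHD4). The others lay near or in NFIB, PTGER3, DDR1, SEPTIN9, SEMA6D, RBMS3, LIFR and EFNA5, with H3K4me3 folds from 6.39 (EFNA5) to 13.8 (SEMA6D, an inner start). H3K27ac was at all of these 10 but the peaks near NFIB and in RBMS3, and H3K4me1 at those of METTL24, DDR1, SEPTIN9 and LIFR.

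FLI1 peaks overlapped 9 of the 2732 distal peaks (0.329%), beside 0.889% of the whole list and 0.953% (0.788 to 1.15) at gene ends. With the H3K4me3 summit required inside the FLI1 peak, 1 distal peak was left and the order turned (0.0366% and 0.0181% at gene ends). The strongest FLI1 signal by far was at the start of LOC105370680, with ANKRD9 as the nearest coding gene (chr14:102525013-102525463), with a FLI1 fold of 17.6, an H3K4me3 fold of 8.65 and all 4 subunits. Next were the shared peak of SKOR1-AS1 and RNU6-1 (FLI1 fold 4.28, all 4 subunits), MIATNB (4.65), LOC107984781 with UACA as the nearest coding gene (5.08, all 4 subunits), the inner starts of THRAP3 (3.95) and RALB (4.78), a peak in FAAP20 (4.15) and 2 neighbouring peaks near SPRY4, a feedback inhibitor of receptor kinases, under 1 FLI1 peak (3.79, all 4 subunits at both). HDAC2 and RBBP4 overlapped all 9, and H3K27ac 8 of them, with the 2 peaks near SPRY4 counted apart. Over all distal peaks the shares were 53.8% for HDAC2, 32.4% for RBBP4 and 48.6% for H3K27ac. Outside the first, the FLI1 folds were at most 5.08.

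The farthest distal peaks lay over 1 Mb from any coding gene end. The first 2 lay 1389 and 1388 kb from TENM3 on chromosome 4 (fold 10.6 and 8.54) and the third 1325 kb from EYS on chromosome 6 (9.98), with HDAC2 at 1 of these 3 and no H3K27ac. The fourth, 1275 kb from BRINP3 on chromosome 1 (chr1:188821281-188822353, fold 7.85), overlapped H3K27ac and all 4 subunits. The fifth, 1097 kb from VRK1, lay at LINC01550 (fold 10.9) with H3K27ac and HDAC2. Distance thus gave no single type. Over chromosomes, distal peaks made up between 12.1% (chromosome 19) and 24.3% (chromosome 6) of the H3K4me3 peaks. Another distal peak lay within 1 kb of 717 (26.2%, 24.6 to 27.9), so part of the set are neighbouring pieces of 1 marked region and the counts of peaks exceed those of separate elements.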

How the data were processed

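ChIP-seq peak lists of SK-N-MC cells for 9 targets were used, 1 each, and the 2 input libraries were not analysed here. The label naming the antibody target gave each sample its group. Reads went through bedtools 2.27.1, deepTools 3.2.1, SAMtools 1.9, BWA 0.7.17, FastQC 0.11.7 and Trimmomatic 0.36 (listed here in no order of use) with GRCh38, per the submitters' processing notes. Deposited peak names carry MACS2. Its version, the control library, any pooling and excluded regions were not given in the sources used here. Each deposited peak has a fold enrichment at the summit (a ratio) and a −log10 p and −log10 q computed by the authors' peak caller. They were used to describe, filter and rank peaks within a list, and the deposited score was not used. The smallest −log10 p was 9.16 for H3K4me3, 5.02 for FLI1, 7.01 for RBBP4 and about 9 elsewhere.

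Positions were made 1-based. Overlap meant at least 1 shared base. Genes came from the RefSeq table of GRCh38.p14, and starts and strands from a RefSeq table of 300-base start windows, which covered 15842 of 20037 coding genes and 11461 of 18303 long noncoding RNA genes. A gene was at a peak with an end or start within 1 kb. The order of classes was coding start, then noncoding gene, then position. Of several overlapping peaks of a target, the one of highest −log10 p gave the summit. Shares have Wilson intervals. The interval code was tested on simulated peaks. Python 3.11.15, pandas 2.3.3 and numpy 2.4.6 were used.

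The set of peaks and the 6 gene lists were chosen with earlier results of these data known, so no list is independent support. Named were the 10 peaks of highest −log10 p, the 10 such noncoding genes, all peaks with FLI1, the 10 with all 4 subunits of best mean rank, 8 genes without H3K4me3 at their ends, the 5 farthest peaks and up to 8 genes of each list, beside those said to be chosen otherwise. Alternatives were a −log10 p of at least 15, summit or 50% overlap, a distance of 10 kb, merging within 1 kb, a window of 2 kb, no width limit and leaving out chromosome 8.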

Additional observations from a re-analysis of the deposited data

How the results depend on the processing

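Of 102 alternative values 49 stayed within the interval of the main value or, for the number of peaks, within 1.5 times, and 53 moved, for causes that were not tested beyond the stricter rules themselves. A distance of 10 kb moved only the share inside coding genes (51.9%), the 2 kb window the noncoding share (38.5%), and leaving out chromosome 8 or the width limit none. With a −log10 p of at least 15 the distal H3K4me3 peaks had H3K27ac in 45.8%, H3K4me1 5.48%, CHD4 18.8%, HDAC2 47.7%, MTA2 21.9%, RBBP4 15.4%, all 4 subunits 6.07%, none 44.5%, FLI1 0.0392% and neither H3K27ac nor H3K4me1 53.2%. With the summit inside the other peak these were, in the same order, 44.5%, 2.42%, 9.55%, 32.6%, 6.55%, 8.13%, 2.09%, 63.2%, 0.0366% and 54.9%. With 50% of the peak covered they were 33.1%, 2.49%, 7.43%, 22.5%, 4.28%, 3.88%, 1.17%, 74.0%, 0% and 66.4%. Merging peaks within 1 kb gave H3K27ac 50.6%, CHD4 27.2%, HDAC2 56.7%, MTA2 32.1%, RBBP4 35.2%, none 33.3% and neither mark 47.6%. At the distal acetylated peaks H3K4me1, all 4 subunits, FLI1 and HDAC2 were 60.0%, 15.5%, 8.78% and 39.1% under the stricter p. They were 55.5%, 2.08%, 0.0439% and 13.5% by summit (CHD4 16.0%), and 55.6%, 0.691%, 0.0549% and 7.74% by coverage (CHD4 8.59%).

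The 16 differences between sets were rerun after seeing the data, and 11 reversed under no alternative, among them those of CHD4, H3K4me1 and all 4 subunits between distal and gene-end peaks and all 4 of the tRNA peaks. With 50% coverage the distal minus gene-end difference turned to 8.09 points for H3K27ac and 5.91 for HDAC2, and the unannotated minus inner start difference to 3.96 points for HDAC2. MTA2 had no stable sign: 0.154 points in the main comparison, 2.89 by summit and 3.25 by coverage, but -0.228 under the stricter p, -0.276 at 10 kb and -0.0761 without chromosome 8. FLI1 reversed by summit (0.0185 points), with 1 distal peak left. No paired analysis was possible because each target had 1 peak list. The unknown depth limits every share: a missing peak can be a site below the caller's threshold.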
